A study of Mus musculus with 4 samples.

Results

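The genes described here encode the receptors, bridging proteins and first signalling proteins with which macrophages take up apoptotic cells. They were taken by name from the table of normalised read values, in which all 10 listed genes were present among 18364 genes. The names were chosen with earlier results of these data known, so counts of calls among them are not those of a blind choice. The study asked what RXRα, a nuclear receptor, does in LPMs, the large macrophages resident in the peritoneal cavity of the mouse. LPMs of 8-week-old C57BL/6 mice were sorted as F4/80+ MHCII-negative CD102+ cells, and their RNA was sequenced in bulk from 2 libraries labelled WT (wild type) and 2 labelled Rxra-KO (*Rxra*-/-). Per the methods of the study, *Rxra* fl/fl was deleted by Cre expressed from the *LysM* (*Lyz2*) locus, so the deletion was in myeloid cells, and the controls were *Rxra* fl/fl littermates. How many mice stood behind a library, and their sex, are not given in the sources used here, so the spread between libraries may be partly technical.

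Dying cells expose phosphatidylserine, a lipid that healthy cells keep on the inner side of their membrane. Macrophages bind it directly, through receptors such as TIM4 (*Timd4*) and stabilin-1 (*Stab1*), or through soluble bridging proteins. GAS6 and protein S (*Pros1*) bridge it to the TAM receptor tyrosine kinases TYRO3, AXL and MERTK, and MFG-E8 (*Mfge8*) bridges it to αv integrins. Below the receptors, ELMO1 and DOCK1 form an exchange factor that activates the small GTPase RAC1, which drives the membrane around the dying cell. Peritoneal macrophages are known for taking up apoptotic cells, and TIM4 is widely used as a mark of the long-lived resident cells among them.

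Recovered depth in reads was 652542 and 947372 for WT and 629030 and 1047021 for the Rxra-KO label, so that 1 read was worth a normalised value of 0.993 to 1.51. *Rxra* itself did not fall with the label (20 and 28 reads in WT against 33 and 77 in Rxra-KO, limma adjusted *p* = 0.183). This value does not bear the label out. It covers the whole gene, so reads of the deleted part cannot be told apart from the rest, and it cannot settle the label. *Lyz2*, the locus that carries Cre, ran with the label, with WT values of 14263 and 11591 against 6386 and 6230, and was called lower (limma adjusted *p* = 0.00163). All directions below are between libraries as labelled. Of the genes behind the sort and the lineage, *Adgre1* (F4/80, named *Emr1* in the table), *Itgam*, *Csf1r* and *Icam2* (CD102) were read in every library. Of 12 LPM markers, 9 were nevertheless called lower with the Rxra-KO label, among them *Gata6*, *Emr1*, *Itgam* and *Icam2*. Of 10 markers of small peritoneal macrophages (SPMs) and monocyte-derived cells, 7 were called higher. The summed value of the list was 1891 to 2345 in WT and 7316 to 8817 in the libraries labelled Rxra-KO. *Lyz1* made up most of the WT sum, at 1961 and 1754, and stood at 4105 and 4191 with the Rxra-KO label. *Plac8*, *Ly6c2* and *Cd226* were not called, at 0 to 5 reads a library. The list of 7 dendritic cell markers held 1 call, *Cd209a*, which the SPM list also holds, and summed to 68.9 to 73.4 against 109 to 131. The lists for B cells, T cells, mast cells, eosinophils, neutrophils, mesothelial cells and erythroid cells held no call, and their summed values lay between 5.42 and 123 in WT and between 3.01 and 116 in the libraries labelled Rxra-KO. Each of these lists lacked markers that the data did not hold. Only 4 of 9 neutrophil markers were measured, without *S100a8*, *S100a9* and *Ly6g*, and 2 of 6 erythroid markers. For B cells and for T cells 6 of 8 were measured, so these sums do not measure purity. No marker measured on these lists had 0 reads in all 4 libraries. In bulk RNA, fewer cells of a type and less RNA per cell cannot be told apart, and the part of these shifts in the results below was not tested.

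The 2 members called between the groups, *Stab1* and *Gas6*, are shown first by the 250 bases upstream of their transcription start. RXRα binds DNA, but whether it acts on either gene was not tested, and sites farther away were not searched. The sequences are from RefSeq (GRCm38.p6), run 5′ to 3′ towards the gene on the minus strand, and lie at chr14:31168642-31168891 for *Stab1* and chr8:13494536-13494785 for *Gas6*. Capitals mark every match to the motifs searched on both strands, which were the RXR half-site AGGTCA with its variants GGGTCA and AGTTCA, the GATA motif AGATAA, the GC box GGGCGG, the TATA box TATAAA and the AP-1 motif TGACTCA.
Stab1: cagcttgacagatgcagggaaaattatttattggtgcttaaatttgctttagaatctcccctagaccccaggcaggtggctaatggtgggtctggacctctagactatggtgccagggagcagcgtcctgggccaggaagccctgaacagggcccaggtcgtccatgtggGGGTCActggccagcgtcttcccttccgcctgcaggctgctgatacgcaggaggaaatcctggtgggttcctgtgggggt
Gas6: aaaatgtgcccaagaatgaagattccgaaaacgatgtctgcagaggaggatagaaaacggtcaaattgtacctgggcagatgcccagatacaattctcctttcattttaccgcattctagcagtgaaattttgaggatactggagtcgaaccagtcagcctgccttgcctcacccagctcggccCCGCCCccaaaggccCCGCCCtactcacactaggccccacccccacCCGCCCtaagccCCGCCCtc

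The *Stab1* window held 1 match, the variant half-site GGGTCA at positions -80 to -75 counted from the start. The *Gas6* window held 4 GC boxes, each read as CCGCCC, and no half-site. Of all 32851 windows of this length, 11.6% held GGGTCA or its reverse complement and 32.7% held a GC box. All 10 members had a window, 11 in all because *Elmo1* had 2, and AGGTCA stood in that of *Timd4* alone against 14% of all windows. Among the members that were not called, *Mertk* also held GGGTCA, and *Axl* held AGTTCA, which stood in 11.8% of all windows. A GC box stood in 8 of the 11 member windows and in neither that of *Timd4* nor that of *Stab1*. A match is a description of letters and not of binding.

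Of the 10 genes, 2 were called, *Stab1* and *Gas6*, both higher with the Rxra-KO label. None was called lower. A gene was called at a limma adjusted *p* under 0.05 over all genes with a log2 fold change of at least 0.6 in size. Over all genes 1.32% of genes were called higher, 0.969% lower and 2.29% in either direction. Those shares include many genes with few reads, which are harder to call, and the median gene had a mean of 9.25 reads a library. The fitted change was positive for 6 members and negative for 4, with a median log2 fold change of 0.22 against 0.02 over all genes, and the median size of the change was 0.41 against 0.40. Both libraries of one label lay on one side of both of the other for 6 members, 4 higher and 2 lower, where 38.1% of all genes did so. Together the 10 genes took 0.1% and 0.108% of the reads in the WT libraries and 0.112% and 0.117% in those labelled Rxra-KO.

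**Figure D1:**
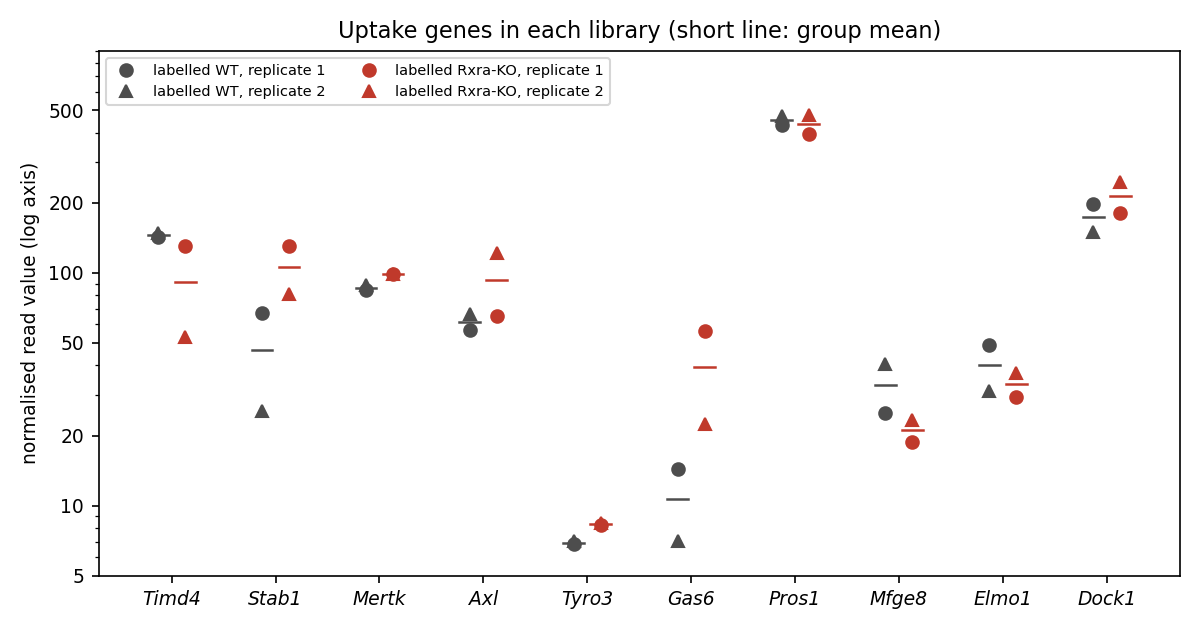
Normalised read value (vertical log axis) of each of the 10 uptake genes in each of the 4 libraries, with grey points for WT, red points for libraries labelled Rxra-KO, circles for replicate 1, triangles for replicate 2 and a short line at each group mean. *Gas6* and *Stab1* lie higher in both libraries labelled Rxra-KO, *Timd4* is low in replicate 2 of that label alone, and *Pros1* lies between 397 and 477 throughout.

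Stabilin-1 is a large scavenger receptor that also binds phosphatidylserine. *Stab1* had normalised values of 67.4 and 25.5 in WT and 130 and 80.9 in the libraries labelled Rxra-KO, from 44 and 23 reads against 86 and 81. The groups did not overlap, although the higher WT library and the lower Rxra-KO library were close, and their counting intervals (95%, exact Poisson) of 49.2 to 90.2 and 64.4 to 101 overlapped. The mean went from 46.4 ± 29.6 to 106 ± 34.9 (SD, n = 2), and *Stab1* rose by a log2 fold change of 1.28 with a standard error of 0.33, a fold of 2.44 with a 95% interval of 1.56 to 3.81 (limma adjusted *p* = 0.00753). The call rested on 2 libraries. Without WT replicate 2 the log2 fold change was 0.60 (limma adjusted *p* = 0.694), and without Rxra-KO replicate 1 it was 0.95 (limma adjusted *p* = 0.571).

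TIM4 is a phosphatidylserine receptor that holds dying cells at the macrophage surface. *Timd4* had values of 143 and 148 in WT and 130 and 53.1 in the libraries labelled Rxra-KO, with 94 and 136 reads against 86 and 53. Both WT libraries lay above both libraries labelled Rxra-KO, but replicate 1 of that label was close to WT and replicate 2 was far below it. The counting intervals of these 2 libraries, 104 to 161 and 39.9 to 69.4, did not overlap. *Timd4* was not called, with a fitted log2 change of -0.80 (standard error 0.29, 95% interval -1.36 to -0.24) and a limma adjusted *p* = 0.157. Which library is kept decides the value, since leaving out Rxra-KO replicate 2 gave a log2 change of -0.16 and leaving out Rxra-KO replicate 1 gave -1.44, which passed the thresholds (limma adjusted *p* = 0.0065).

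The 3 TAM receptors, tyrosine kinases that bind the bridging proteins GAS6 and protein S, held no call. *Mertk*, the TAM receptor most closely tied to apoptotic cell uptake by resident macrophages, had values of 84.0 and 88.4 in WT and 98.6 and 98.8 in the libraries labelled Rxra-KO. These groups did not overlap but lay close together. The fitted log2 change of 0.19 had a 95% interval of -0.38 to 0.77, so a change of more than 1.7-fold in either direction lay outside the interval (limma adjusted *p* = 0.932). *Axl* had 56.8 and 66.7 in WT against 65.5 and 122, so the groups overlapped and replicate 2 of the Rxra-KO label alone was high. Its log2 fold change was 0.53 with an interval of -0.08 to 1.14 (limma adjusted *p* = 0.607), and it was 0.09 without that library and 0.97 without Rxra-KO replicate 1. *Tyro3* was near the limit of the data, at 4 and 6 reads for WT and 5 and 8 for the Rxra-KO label. Its values of 6.81 to 8.44 gave an interval of -1.17 to 1.65 on the log2 scale, so that even a 2-fold change was not detectable at this depth.

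GAS6 is a vitamin K-dependent protein that binds all 3 TAM receptors. *Gas6* had values of 14.4 and 7.05 in WT and 56.5 and 22.3 in the libraries labelled Rxra-KO, from 9 and 6 reads against 37 and 22. Both libraries labelled Rxra-KO lay above both WT libraries, with replicate 1 the higher of each pair. The mean went from 10.7 ± 5.19 to 39.4 ± 24.1 (SD, n = 2), and *Gas6* rose by a log2 fold change of 1.72 with a standard error of 0.51, a fold of 3.29 with a 95% interval of 1.65 to 6.58 (limma adjusted *p* = 0.0382). It lost its call without WT replicate 2, at 1.25 (limma adjusted *p* = 0.379), and without Rxra-KO replicate 1, at 1.07 (limma adjusted *p* = 0.904), and voom missed the threshold at an adjusted *p* = 0.0633.

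Protein S, the other TAM ligand and also an anticoagulant of plasma, was far more abundant. *Pros1* had values of 434 and 474 in WT and 397 and 477 in the libraries labelled Rxra-KO, from 263 to 480 reads. The groups overlapped, and the log2 fold change of -0.06 had an interval of -0.50 to 0.38, the narrowest among the 10 genes (limma adjusted *p* = 0.981). Within each library, *Gas6* stood apart from *Pros1* on the log2(value + 1) scale by -4.82 and -5.88 in WT and by -2.79 and -4.36 in the libraries labelled Rxra-KO, so *Pros1* was the more abundant TAM ligand transcript in all 4 libraries before any correction for length. *Mfge8*, which encodes a secreted protein with an integrin-binding RGD motif, had 24.98 and 40.7 in WT and 18.8 and 23.3 in the libraries labelled Rxra-KO. These groups did not overlap but came close, and with 12 to 37 reads a library the log2 fold change of -0.58 had an interval of -1.46 to 0.29 (limma adjusted *p* = 0.758).

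ELMO1 and DOCK1 act together below the receptors to load RAC1 with GTP. *Elmo1* had values of 49.2 and 30.9 in WT and 29.4 and 37.2 in the libraries labelled Rxra-KO, so the groups overlapped. The fitted log2 change was -0.23 with an interval of -1.002 to 0.54 (limma adjusted *p* = 0.944). *Dock1* was read more deeply, at 120 to 247 reads, with values of 198 and 150 in WT and 181 and 246 in the libraries labelled Rxra-KO. These groups also overlapped, and the log2 fold change of 0.29 had an interval of -0.20 to 0.79 (limma adjusted *p* = 0.808).

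**Figure D2:**
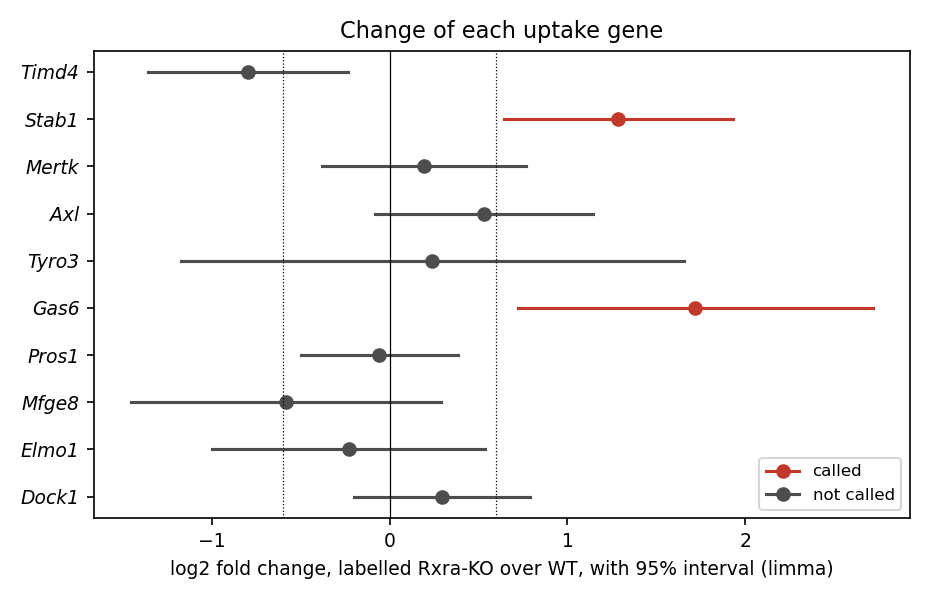
Log2 fold change of each uptake gene, libraries labelled Rxra-KO over WT (horizontal axis), with its 95% interval from limma, called genes in red and the others in grey, a solid line at 0 and dotted lines at 0.6 in both directions. Only the intervals of *Stab1* and *Gas6* lie wholly above 0.6, that of *Timd4* lies wholly below 0 without being called after adjustment, and *Tyro3* has the widest.

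The members differed in how much single libraries set their values. *Mertk* and *Tyro3* moved least, between 0.16 and 0.23 and between 0.22 and 0.26, on leaving out the libraries one at a time. *Stab1* ranged from 0.60 to 1.97, *Gas6* from 1.07 to 2.37 and *Timd4* from -1.44 to -0.16, all on the log2 scale and each on one side of 0. *Pros1*, from -0.19 to 0.07, and *Elmo1*, from -0.56 to 0.09, changed sign. *Axl* ranged from 0.09 to 0.97, *Dock1* from 0.07 without Rxra-KO replicate 2 to 0.51 without Rxra-KO replicate 1, and *Mfge8* from -0.92 without WT replicate 1 to -0.24 without WT replicate 2. The same library did not move all genes one way, since Rxra-KO replicate 1 had the higher *Gas6*, *Stab1* and *Timd4* of its label, and Rxra-KO replicate 2 the higher *Axl* and *Dock1*.

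**Figure D3:**
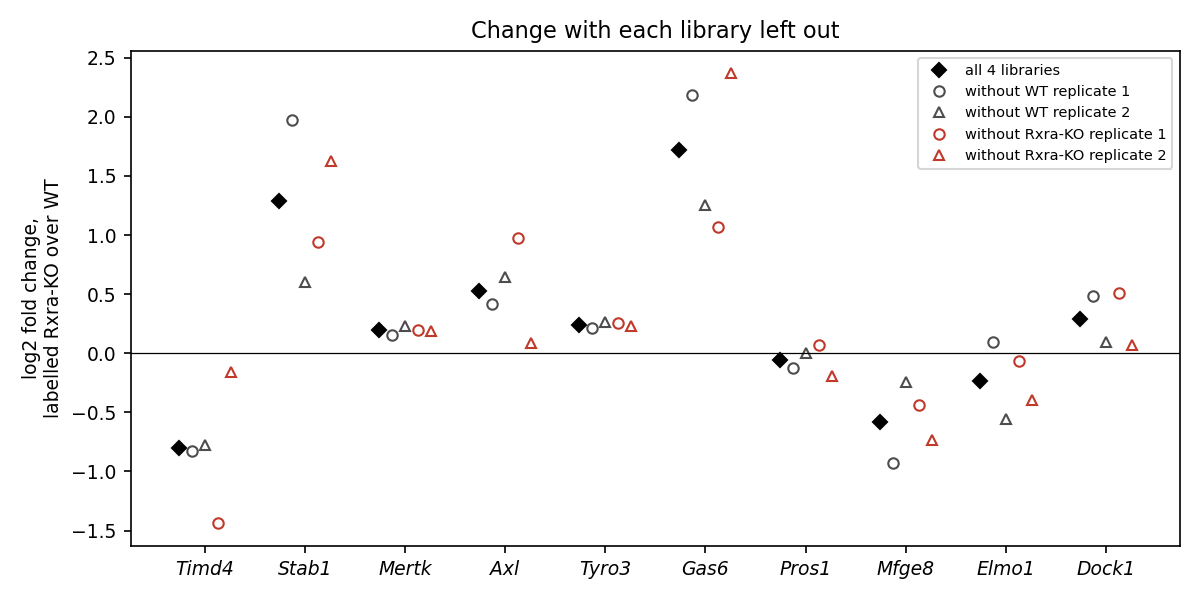
Log2 fold change of each uptake gene, libraries labelled Rxra-KO over WT (vertical axis), with all 4 libraries (black diamonds) and with each library left out in turn (open symbols, grey for a WT and red for an Rxra-KO library left out, circles for replicate 1 and triangles for replicate 2). *Stab1*, *Gas6* and *Timd4* spread widely but stay on one side of 0, and *Mertk* and *Tyro3* hardly move.

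To compare levels between genes, each normalised value was divided by the length of the principal protein-coding transcript in kilobases (GENCODE M21). In WT, *Pros1* was highest at 137 per kilobase (131 and 143 in the 2 libraries), followed by *Timd4* at 67.0, *Dock1* at 25.5 and *Mertk* at 20, with no overlap between neighbours in this order. *Mfge8* at 15.5 and *Axl* at 14.5 per kilobase could not be ordered beyond their spread, and neither could *Elmo1* at 7.33, *Stab1* at 5.81 and *Gas6* at 4.21, each of which overlapped its neighbour. *Tyro3* was lowest at 1.74. In the libraries labelled Rxra-KO the first 4 genes stood in the same order of means, *Gas6* stood at position 6 with 15.5 per kilobase in place of 9, and *Mfge8* at position 8 in place of 5. The range of *Gas6* there, 8.77 to 22.2, overlapped those of *Axl*, *Stab1* and *Mfge8*, so its place among these genes was not set beyond the spread. *Timd4* ranged from 24.5 to 59.9 per kilobase there, so that it overlapped *Dock1*, at 26.7 to 36.1.

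Receptors were also set against each other within each library. The log2(value + 1) difference of *Timd4* from *Mertk* was 0.76 and 0.74 in WT, and 0.40 and -0.88 in the libraries labelled Rxra-KO, so *Timd4* exceeded *Mertk* in every library but Rxra-KO replicate 2. For *Axl* against *Mertk* the difference was -0.56 and -0.40 in WT and -0.58 and 0.30 in the libraries labelled Rxra-KO, and the same library was the exception. With 2 libraries against 2, the smallest *p* that an exact two-sided permutation test of such a difference allows is 0.333, and none was tested.

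The genes whose profiles over the 4 libraries lay nearest to the called members were found among 10049 genes with a mean value of at least 10, by the Euclidean distance of log2(value + 1) profiles centred on their own mean. *Sema4a*, a semaphorin of immune cells, and *Cttn*, which encodes the actin-binding protein cortactin, were nearest to *Gas6*, at distances of 0.31 and 0.32. Reads of *Sema4a* were 14 and 9 against 48 and 39, those of *Cttn* 24 and 20 against 85 and 68, and both were called higher. Both were picked for profiles like that of *Gas6* in these same libraries, so their calls add no separate evidence. *Fastkd2* and *Zfp532* were nearest to *Stab1*, at 0.13 and 0.13, but had at most 16 reads in any library and were not called.

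Further genes of apoptotic cell clearance were examined in 9 lists holding 130 distinct genes, of which 124 were measured. Of these, 6 were called higher and 4 lower in the libraries labelled Rxra-KO, which is 8.06% against 2.29% of all genes, and their median log2 fold change was 0.08. The calls were spread over 6 of the lists, and no list was tested as a set. The most abundant gene of a list is the one with the highest mean WT value, before any correction for length. Its WT values could overlap those of other genes in the list. The shares are not a like comparison, since genes with few reads are harder to call. Over all genes the median gene had a mean of 9.25 reads a library. In a fit to the 10049 genes with a mean value of at least 10, 384 were called. The lists were also chosen with earlier results of these data known.

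Among 19 other uptake receptors, 1 was called in each direction and the median log2 fold change was -0.35. *Marco*, a scavenger receptor and the most abundant receptor of the list in WT, fell from 1706 and 1374 to 207 and 399, a log2 change of -2.41 (standard error 0.22, limma adjusted *p* = 2.29e-19). *Trem2*, a lipid-sensing receptor of the immunoglobulin family, rose, and was read 2 and 3 times in WT and 23 and 24 times in the libraries labelled Rxra-KO. The ratio of its reads summed over each label, corrected for depth, was 8.90 with an exact counting interval of 3.56 to 28.7. That interval leaves out the spread between libraries. The limma fold of *Trem2* was 6.34 with an interval of 2.67 to 15.0 (limma adjusted *p* = 0.00289). Without Rxra-KO replicate 1 its log2 change went from 2.66 to 2.40 and was not called. *Stab2*, the paralog of *Stab1*, had values of 22.0 and 16.8 in WT and 32.4 and 26.3 in the libraries labelled Rxra-KO and was not called (log2 fold change 0.58, limma adjusted *p* = 0.775). Whether the counting divided reads between such paralogs was not tested.

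Of 12 other opsonins and bridging proteins, 1 was called. *Thbs1*, which encodes thrombospondin-1, a bridge to CD36 and αv integrin, fell from values of 369 and 301 to 138 and 55.1. Its log2 change was -1.92 (limma adjusted *p* = 1.54e-09), or -1.27 without Rxra-KO replicate 2, and DESeq2 did not call it (DESeq2 adjusted *p* = 0.0968). *C1qc*, a subunit of the complement opsonin C1q and the most abundant gene of the list, had 3952 and 4173 in WT and 4331 and 4990 in the libraries labelled Rxra-KO and was not called (log2 fold change 0.20, limma adjusted *p* = 0.895).

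Among 19 other genes of engulfment signalling, 1 was called in each direction. *Rac1*, the GTPase on which ELMO1 and DOCK1 act, rose from 104 and 168 to 222 and 337, a log2 change of 1.05 (limma adjusted *p* = 0.00375), and lost its call without WT replicate 1, at 0.70, and without Rxra-KO replicate 2, at 0.75. *Dock5*, a relative of *Dock1*, fell from 146 and 198 to 58.0 and 57.1, a log2 change of -1.55 (limma adjusted *p* = 2.71e-05), and was called with each library left out. *Rhoa*, a GTPase that restrains engulfment and the most abundant gene of this list, was not called (log2 fold change 0.51, limma adjusted *p* = 0.317).

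In the list of 16 measured genes that respond to engulfed cells, 3 were called higher and the median change was 0.39 on the log2 scale. *Hmox1*, which encodes the haem-degrading enzyme haem oxygenase-1, rose from 59.8 and 61.3 to 178 and 127, a log2 change of 1.30 (limma adjusted *p* = 0.0011), or 1.05 and not called without Rxra-KO replicate 1. *Abca1*, a cholesterol exporter, had 101 and 40.7 in WT and 147 and 205 in the libraries labelled Rxra-KO. It rose by a log2 change of 1.42 (limma adjusted *p* = 1.90e-04), but was not called without WT replicate 2, at 0.78, nor without Rxra-KO replicate 2, at 1.18. *Pparg*, a nuclear receptor that pairs with RXR, was read 1 and 0 times in WT and 24 and 6 times in the libraries labelled Rxra-KO. The ratio of its reads summed over each label, corrected for depth, was 28.4 with an exact counting interval of 4.72 to 1159. That interval leaves out the spread between libraries, and the values with the Rxra-KO label were far apart, at 36.9 and 6.46. The limma fold of *Pparg* was 7.48 with an interval of 2.55 to 22.0 (limma adjusted *p* = 0.0164), and it was not called without WT replicate 2. Without Rxra-KO replicate 1 the log2 change went from 2.90 to 1.73 and was not called either (limma adjusted *p* = 0.855). *Ucp2*, a mitochondrial carrier and the most abundant gene of this list, had a log2 fold change of -0.72 and was not called (limma adjusted *p* = 0.0817).

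Of the genes that restrain uptake, 9 were measured and 1 was called. *Cd24a*, which encodes a surface glycoprotein that signals against uptake, fell from 84.0 and 134 to 18.8 and 21.3, a log2 change of -2.35 (limma adjusted *p* = 8.53e-08). *Sirpa*, the macrophage receptor for CD47 and the most abundant gene of this list, had 350.5 and 383.5 in WT and 549 and 554 in the libraries labelled Rxra-KO, without a call (log2 fold change 0.59, limma adjusted *p* = 0.219). Among 11 genes that control TAM receptors or the vitamin K cycle, *Adam9*, a membrane metalloprotease, was the 1 call. It rose from 284 and 282 to 508 and 517, a log2 change of 0.86 (limma adjusted *p* = 0.0127), and its size stayed between 0.84 and 0.87 with each library left out, although no such fit called it. *Ifnar1*, a subunit of the type I interferon receptor, was the most abundant gene of that list and was not called (limma adjusted *p* = 0.875).

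None of 20 genes of phagosome maturation and LC3-associated phagocytosis, 10 find-me signal receptors and 8 phosphatidylserine scramblases and flippases was called by limma, with median log2 fold changes of 0.09, -0.27 and 0.16. The most abundant of each were *Cybb*, the catalytic subunit of the phagocyte NADPH oxidase, at -0.70 (limma adjusted *p* = 0.0619), *S1pr1*, a receptor for sphingosine-1-phosphate, at -0.16 (0.969), and *Tmem30a*, the shared subunit of phosphatidylserine flippases, at 0.61 (0.275).

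**Figure D4:**
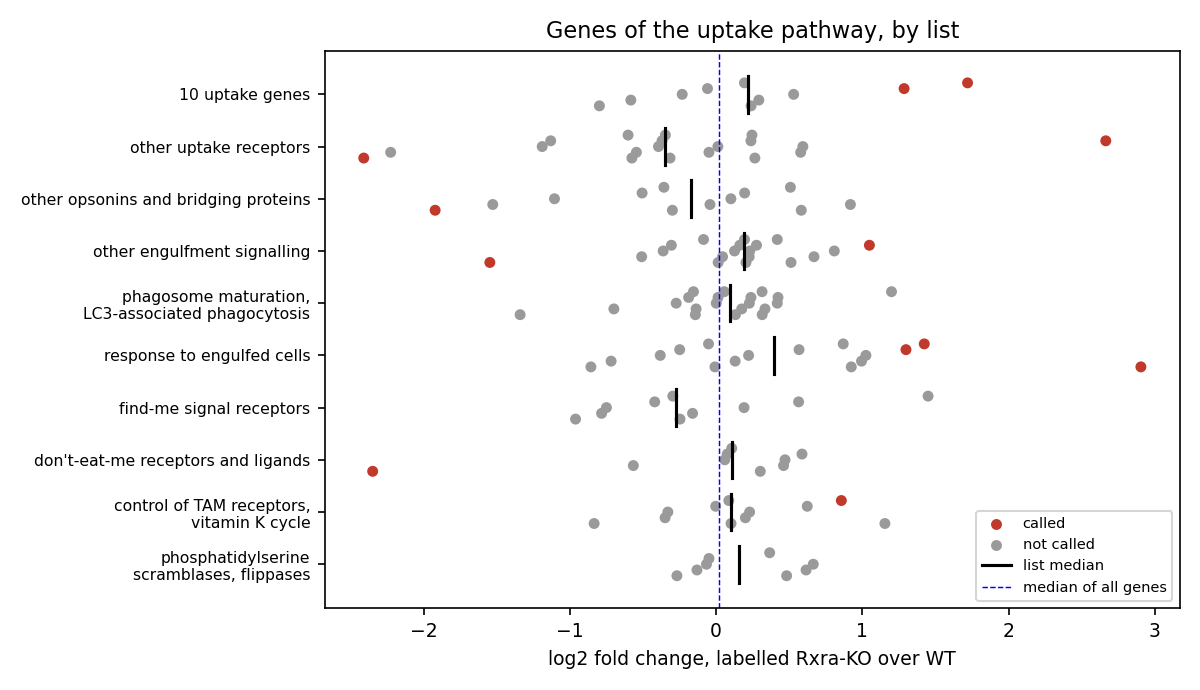
Log2 fold change, libraries labelled Rxra-KO over WT (horizontal axis), of each gene of the 10 uptake genes and of the 9 further lists (rows), with called genes in red, the others in grey, a black bar at each list's median and a dashed line at the median of all genes, 0.02. The called genes lie on both sides of 0, from *Marco* at -2.41 to *Pparg* at 2.90, and 3 lists hold none.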

How the data were processed

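RNA of sorted LPMs was sequenced by the authors from low-input full-length cDNA without molecular identifiers. Per the labels and the methods, transcripts were quantified with Kallisto 0.43.0 against a GRCh38 reference, although the libraries are mouse, and compared with limma after TMM scaling. Which reference gave the values was not settled, and coordinates are given only for RefSeq promoters. The deposited values are a normalised signal, in which the reads plus 0.5 are divided by the TMM-scaled library size, and whole reads were recovered for 100% of them (tolerance 0.001 read). The study reports leaving out RNA-seq samples that did not cluster with their group. Any such sample was not analysed here, so the spread within a label may be understated.

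Each gene was fitted with limma 3.58.1 (R 4.3.3) on log2(value + 1), which understates changes of low genes, with an empirical Bayes mean-variance trend without covariates. All *p* values are two-sided and were adjusted over the 18364 genes by the Benjamini-Hochberg method. A filter of at least 1 in 2 libraries removed no gene. With 2 residual degrees of freedom, each *p* rests on 227 prior degrees of freedom shared across genes. Intervals of reads cover counting error only. Steps were tested on simulated data. edgeR 4.0.16 and DESeq2 1.42.0 were run on recovered reads as alternatives. Transcript lengths were from GENCODE M21.

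The members and lists were chosen with earlier results of these data known. The text names the 10 genes, the called genes and the most abundant WT gene of each further list, marker genes, and the 2 genes nearest in profile to each called member. *Stab2* was added after its values were seen.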

Additional observations from a re-analysis of the deposited data

How the results depend on the processing

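*Stab1* and *Gas6* were both called with pseudocounts of 0.1 and 5, TMM computed anew, DESeq2 size factors, a mean value of at least 10, edgeR and the replicate block. The number of called uptake genes, 2, was 1 with voom, which kept *Stab1*, and 0 with quantile normalisation and with DESeq2 (each with 2 genes at an unadjusted *p* under 0.05) and with limma without a trend (1 gene). DESeq2 gave no adjusted *p* for *Tyro3*, *Gas6* and *Mfge8*, and 0.256 for *Stab1*. In the further lists DESeq2 made 7 calls, not all of them among the 10 of the reported fit. It did not call *Thbs1* (DESeq2 adjusted *p* = 0.0968) or *Rac1* (DESeq2 adjusted *p* = 0.058), and gave no adjusted *p* for *Trem2* and *Pparg*. The number of called uptake genes was also 0 on recovered reads without the added 0.5 read, chosen after seeing the data, with 3 at an unadjusted *p* under 0.05. Leaving out each library gave 0 to 2. The 10 calls in the further lists became 6 on reads without the 0.5 read, 1 with quantile normalisation, 0 without a trend (14 at an unadjusted *p* under 0.05), 16 with the replicate block and 6 to 11 with a library left out. Prior degrees of freedom were 227 in the reported fit, 12.8 without the 0.5 read, 4.92 with quantile normalisation and 3.98 without a trend, and the calls over all genes were 421, 203, 43 and 0. They were 246 with DESeq2, and 236 and 244 without WT replicate 2 and Rxra-KO replicate 1. Whether same-numbered libraries were prepared together is not given in the sources used here and was not tested. Their deviations from the group means correlated at 0.0629 over 10049 genes. Recovered depth was lower in replicate 1 than in replicate 2 of both labels, and the replicate block gave 540 calls over all genes. *Pros1* turned sign without WT replicate 2 (0.004) and without Rxra-KO replicate 1 (0.074), and *Elmo1* without WT replicate 1 (0.094), within leave-one-out ranges of -0.19 to 0.07 and -0.56 to 0.09. The log2 fold changes of *Stab1* and *Gas6* stayed between 1.19 and 1.35 and between 1.42 and 1.94 with all 4 libraries. No gene fell under the filter, so its removal is no test. Depth limits *Tyro3*, *Gas6* and *Mfge8* most, with 4 to 37 reads a library.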
